A study of Mus musculus with 8 samples.

Results

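Macf1, Dst and Plec encode plakins, giant cytolinker proteins, and their transcripts were examined here for peaks of RNA bound by ALKBH5. The 3 genes were taken as fixed intervals of the mouse build GRCm39, namely chromosome 4 from 123243000 to 123578500 for Macf1, chromosome 1 from 33947000 to 34348000 for Dst and chromosome 15 from 76054800 to 76117000 for Plec. Every deposited peak that overlapped an interval by at least 1 bp was a member, which gave 438 peaks of 72953 in the 4 lists. The genes were chosen by the number of peaks in the same lists, which is far higher in full-length than in del-cIDR cells there. All differences between genotypes below are therefore descriptions without a test.

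ALKBH5 is an RNA demethylase that erases N6-methyladenosine. Its bound RNA was recovered by eCLIP, in which UV light crosslinks a protein to the RNA it touches before immunoprecipitation, from nuclei of E14TG2a mouse embryonic stem cells grown with LIF and the inhibitors PD0325901 and CHIR99021. The tested cells (genotype Alkbh5 del-cIDR) carry an endogenous ALKBH5 without its C-terminal intrinsically disordered region and are called del-cIDR, and the cells they are set against are wild type with full-length ALKBH5. Each genotype had 2 immunoprecipitates and 2 inputs, 8 samples in all. For every sample the UV light was 254 nm at 400 mJ per cm2. Each immunoprecipitate has a peak list of its own, and these 4 lists are the data used. The labels do not say how many clones carry the deletion or whether replicates were separate cultures. The stem-cell label was not checked against marker genes, since a peak list is no expression table.

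Plakins tie the parts of the cytoskeleton to each other and to cell junctions. MACF1 (also ACF7) links actin filaments to microtubules, dystonin (the product of Dst, also BPAG1) has isoforms that join intermediate filaments, actin or microtubules, and plectin connects intermediate filaments to actin and to hemidesmosomes. The genes are long and split into many exons, most of them short and a few very long, and the transcripts are among the larger ones of the mouse. In the RefSeq tables used here (GRCm38.p6) Dst lies on the plus strand and Macf1 on the minus strand, and Plec is known as a minus-strand gene. Distances below run from the 5′ end of the interval along the transcript. The peaks themselves carry no strand. In GRCm38.p6 Macf1 is overlapped by 6 other genes, among them the protein-coding D830031N03Rik and the microRNA gene Mir6398. Dst is overlapped by 5, among them Bend6 at its 5′ end and the microRNA gene Mir6896, and Plec by 1, the microRNA gene Mir1942. A peak of the interval therefore need not belong to the plakin transcript. Exons were not placed on the peaks, because the annotation at hand belongs to an older build.

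The full lists were of similar length, with 17584 and 18841 peaks in the del-cIDR pair, against 19892 and 16636 in the full-length pair. The 3 genes held 0.0739% and 0.127% of the del-cIDR peaks, against 0.980% and 1.24% of the full-length peaks. Among the 500 peaks of each list with the highest −log10 q (the authors' significance score of a peak), none lay in these genes in either del-cIDR list, against 96 and 56 in the full-length lists. How many reads stand behind a list is unknown, and the inputs were not analysed here. A change in how much of a transcript the cells hold and a change in how much of it ALKBH5 binds cannot be told apart from these lists.

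Macf1 showed a dense comb of full-length peaks and few del-cIDR peaks. Its interval held 6 and 10 peaks in the del-cIDR lists, against 92 and 99 in the full-length lists. Del-cIDR lists averaged 8 ± 2.83 and full-length lists 95.5 ± 4.95 peaks (SD, n = 2 each), which differ by -87.5 (del-cIDR minus full-length) with no overlap between genotypes. The genome outside the 3 genes was cut into tiles of the same length. Of 4035 such tiles with at least 4 peaks over the 4 lists, 24.5% also had both full-length lists above both del-cIDR lists, so the separation alone is common. The lowest difference among these tiles was -44.5 peaks and the median 0.50. Peaks covered 2.63 and 3.73 kb of the gene in del-cIDR, against 55.0 and 44.2 kb in full-length replicates. The del-cIDR peaks thus lay on 0.784% and 1.11% of the interval, and the full-length peaks on 16.4% and 13.2%.

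Dst, the paralogue of Macf1, gave almost the same picture. It held 7 and 14 peaks in the del-cIDR lists, against 97 and 102 in the full-length lists. Del-cIDR lists averaged 10.5 ± 4.95 and full-length lists 99.5 ± 3.54 peaks (SD, n = 2 each), which differ by -89.0. Both full-length lists lay above both del-cIDR lists, as they did in 23.6% of 3786 tiles of this length outside the 3 genes. The lowest difference among those tiles was -67.0 peaks. Peaks covered 2.57 and 5.50 kb of Dst in the del-cIDR pair, against 56.2 and 45.1 kb in the full-length pair.

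Plec differed from its relatives in having few but long peaks. No peak was listed in either del-cIDR replicate, against 6 and 5 in the full-length replicates. This separation was found in 28.4% of 6226 tiles as long as Plec outside the 3 genes, and 480 of them had a difference as large as its -5.5 peaks or larger. By number of peaks Plec was therefore not exceptional. The full-length peaks covered 16.0 and 11.8 kb, which is 25.7% and 19.0% of the interval and a larger part than in Macf1 or Dst.

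**Figure D1:**
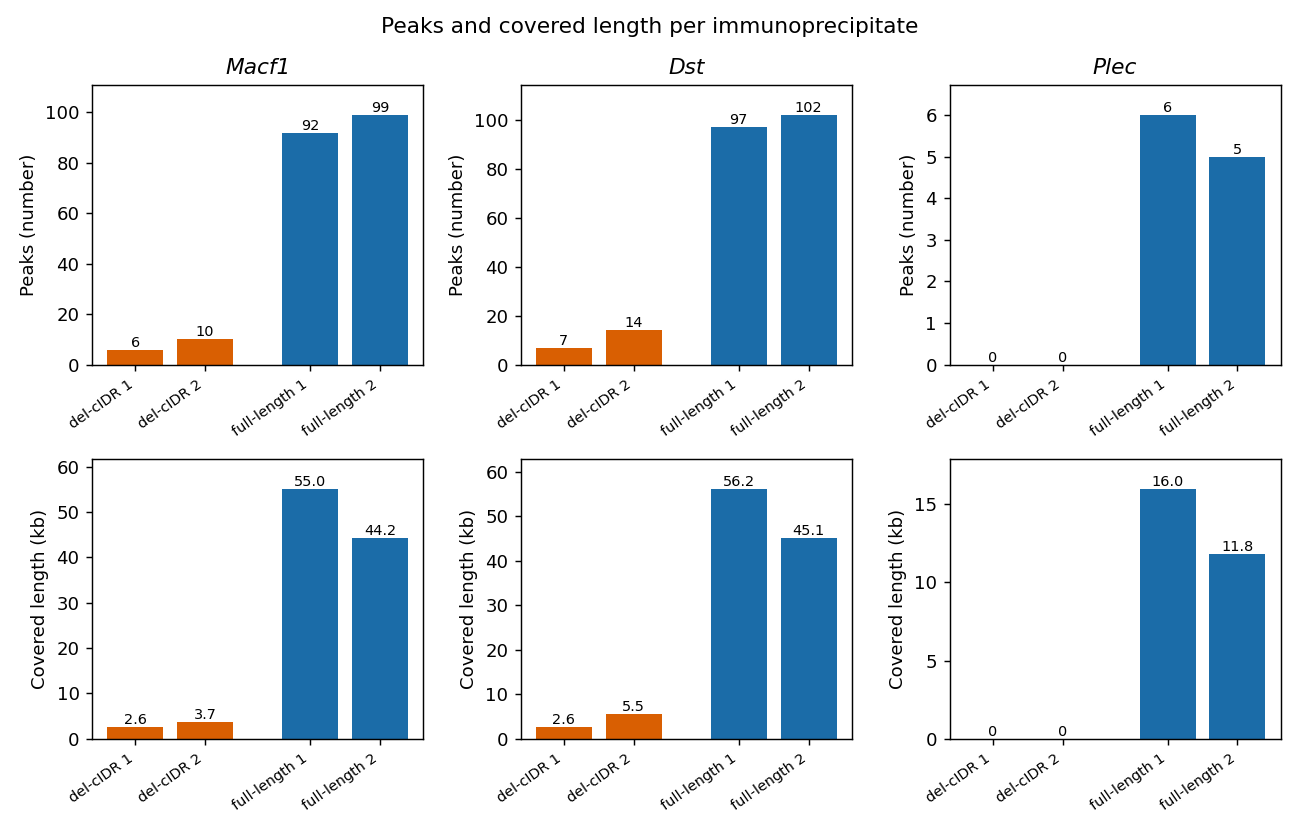
Peaks (upper row, number) and covered length (lower row, kb) in Macf1, Dst and Plec, with 1 bar for each immunoprecipitate, del-cIDR in orange and full-length in blue. Full-length bars reach 92 to 102 peaks in Macf1 and Dst while del-cIDR bars stay at 6 to 14, and Plec has no del-cIDR peak.

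The flanks of the genes held few peaks of either genotype. Within 50 kb on either side of Dst and Plec no list had a peak. Beside Macf1, del-cIDR replicate 1 had 1 peak on each side, del-cIDR replicate 2 had 1 on the side of higher coordinates and full-length replicate 2 had 1 on the side of lower coordinates.

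Peaks were concentrated towards the 3′ end, here the part beyond 50% of the interval. In Macf1 4 of 6 and 9 of 10 del-cIDR summits lay there, against 80 of 92 and 87 of 99 full-length summits. In Dst all 7 and all 14 del-cIDR summits did so, against 88 of 97 and 92 of 102 full-length summits (90.7% and 90.2%). All 6 and all 5 full-length summits of Plec lay in that part too, and those of replicate 2 were all beyond 75%. The few peaks towards the 5′ end included 1 at the very start of Dst in both full-length replicates, with summits 0.535 and 0.527 kb into the interval and 10.0-fold and 4.30-fold enrichment. The next Dst summit followed only after a gap of about 60.5 kb in both of them.

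**Figure D2:**
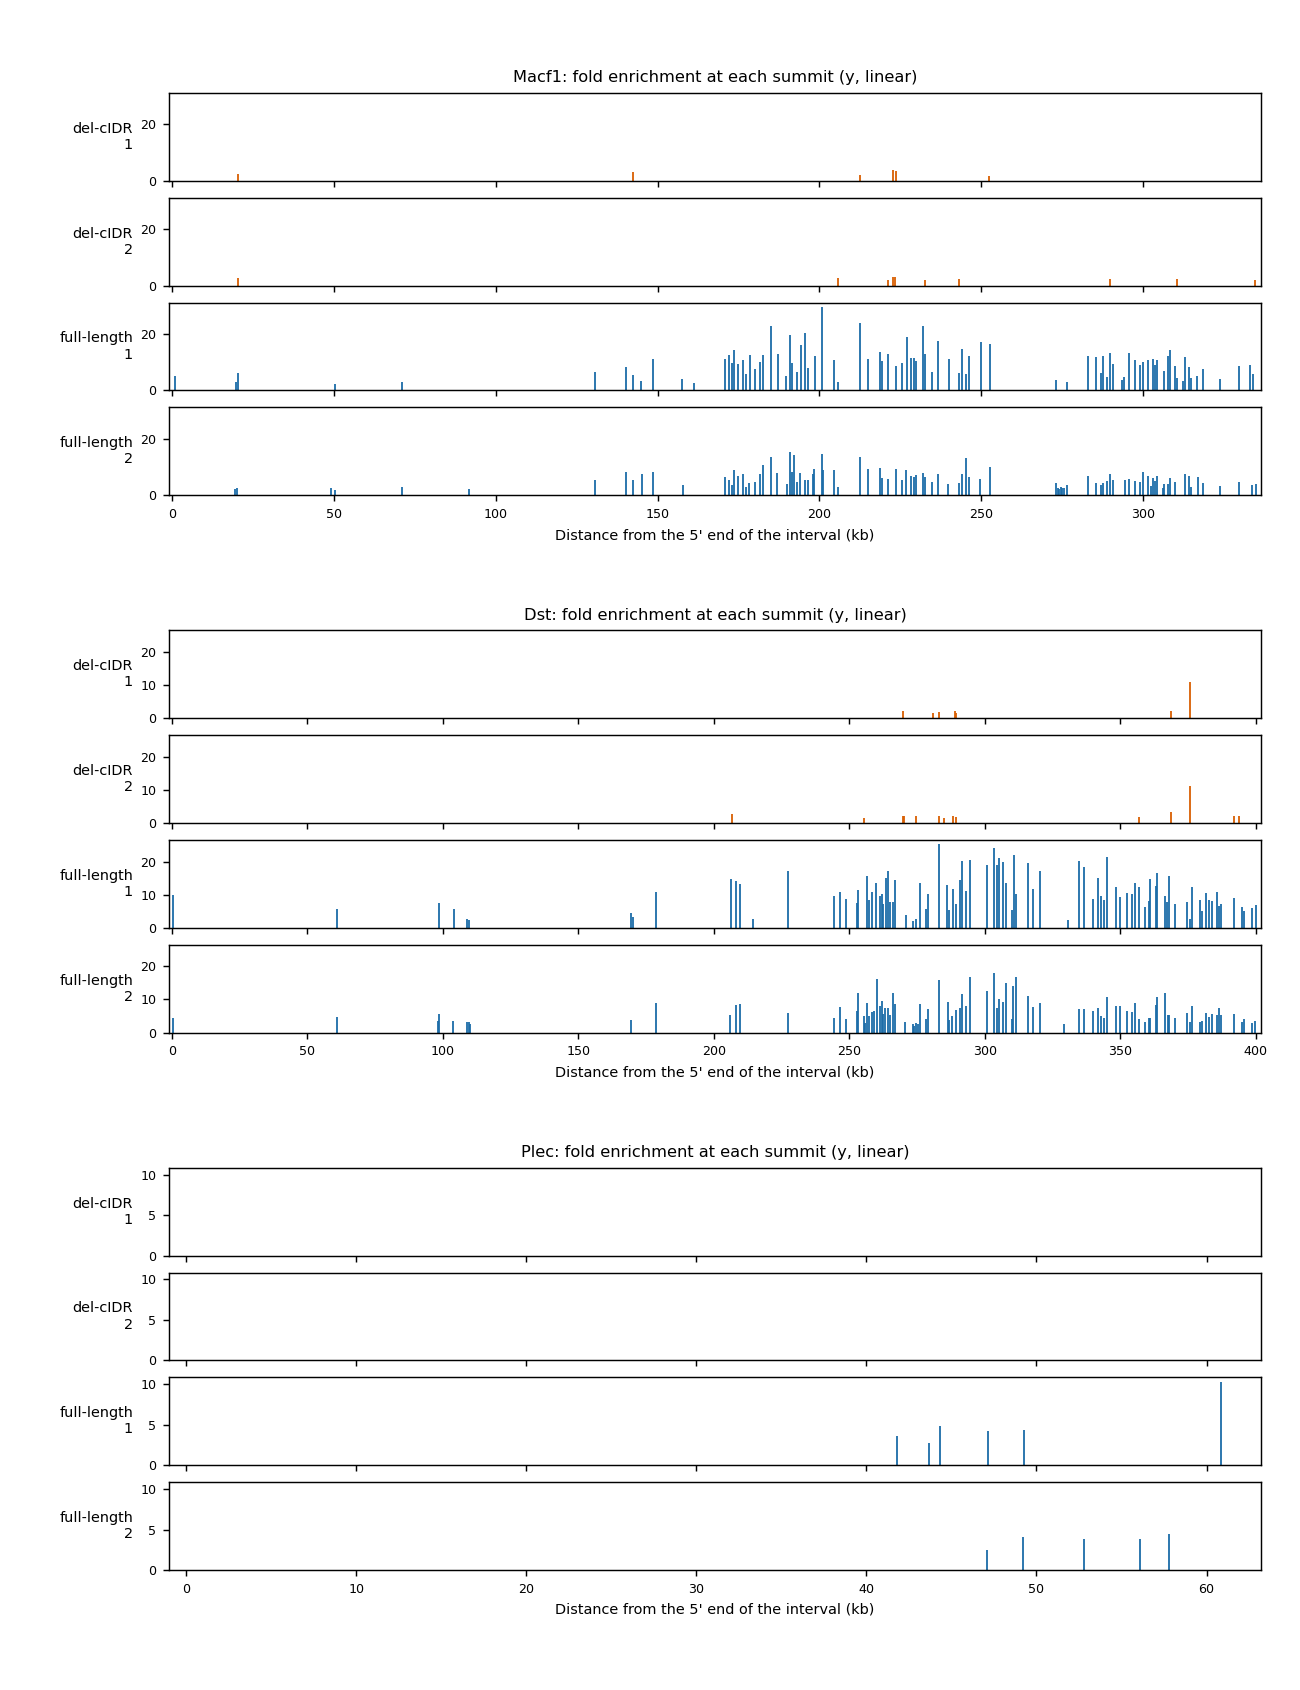
Fold enrichment of each peak (vertical axis, linear) at the distance of its summit from the 5′ end of the interval (horizontal axis, kb), with a row for each immunoprecipitate, del-cIDR above full-length. The 2 full-length rows of Macf1 and Dst share most of their peaks, and the tallest del-cIDR line is the Dst site near 375.8 kb.

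The largest blocks of full-length peaks in Macf1 had nearly the same limits in both replicates, while some small ones were found in 1 replicate only. With peaks of 1 list within 5 kb joined, the largest block ran from 170.7 to 253.0 kb in replicate 1 and from 170.7 to 252.9 kb in replicate 2, with 46 and 49 peaks. A further block from 282.8 to 318.7 kb and from 282.8 to 318.6 kb held 28 and 27 peaks. Within the gene the median distance between neighbouring summits was 1611 and 1366 bp in the full-length lists. Dst had 3 large blocks. That nearest the 3′ end, from 330.5 to 400.8 kb in replicate 1 and from 334.8 to 400.8 kb in replicate 2, held 39 and 38 peaks. The middle block from 300.6 to 321.6 kb and from 300.6 to 321.5 kb held 12 peaks in each, and the block from 244.3 to 295.0 kb and from 244.4 to 294.9 kb held 32 and 37. In Plec all peaks of a list formed 1 block.

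Joining changed how large the difference looked. With peaks within 1 kb joined, Macf1 had 5 and 8 del-cIDR and 45 and 49 full-length blocks, and Dst had 6 and 12 against 47 and 49. With peaks within 5 kb joined, Macf1 had 5 and 8 del-cIDR blocks and 12 in each full-length list, and Dst had 5 and 8 against 10 and 12. The ratio of the mean number in del-cIDR to that in full-length was 0.0838 for peaks and 0.542 for 5 kb blocks in Macf1, and 0.106 and 0.591 in Dst. The genotypes still did not overlap, but the difference was much smaller, as most full-length peaks had a neighbour within 5 kb. The share of tiles with such a separation was not computed for joined blocks, and for single peaks it was common. For Plec the joined count was 1 block in each full-length list, and none was listed for del-cIDR.

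Median peak widths overlapped between the genotypes in Macf1 and Dst, and in these genes peaks of 2 kb or longer were listed for full-length only. Over the whole lists such peaks numbered 16 and 26 in del-cIDR, against 825 and 361 in full-length replicates, so their scarcity in del-cIDR is not particular to these genes. Median widths in Macf1 were 437.5 and 337.5 bp in the del-cIDR pair, against 414.5 and 330 bp in the full-length pair, and those in Dst were 336 and 346.5 bp against 410 and 329 bp. The genotypes overlapped in Macf1, and in Dst both del-cIDR values lay between the full-length ones. Over each whole list the median was 325 and 331 bp in the del-cIDR pair, against 379 and 291 bp in the full-length pair. The shortest peak of each whole list was 300 and 301 bp in the del-cIDR pair, against 297 and 243 bp in the full-length pair. Lists thus differed in their shortest width, lowest in full-length replicate 2, and the overlap of the medians makes no allowance for this. The longest del-cIDR peak was 557 and 559 bp in Macf1 and 454 and 793 bp in Dst, so that none reached 2 kb. Peaks of 2 kb or longer numbered 2 and 1 in Macf1, 3 and 1 in Dst and 1 and 3 in Plec in the full-length replicates.

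**Figure D3:**
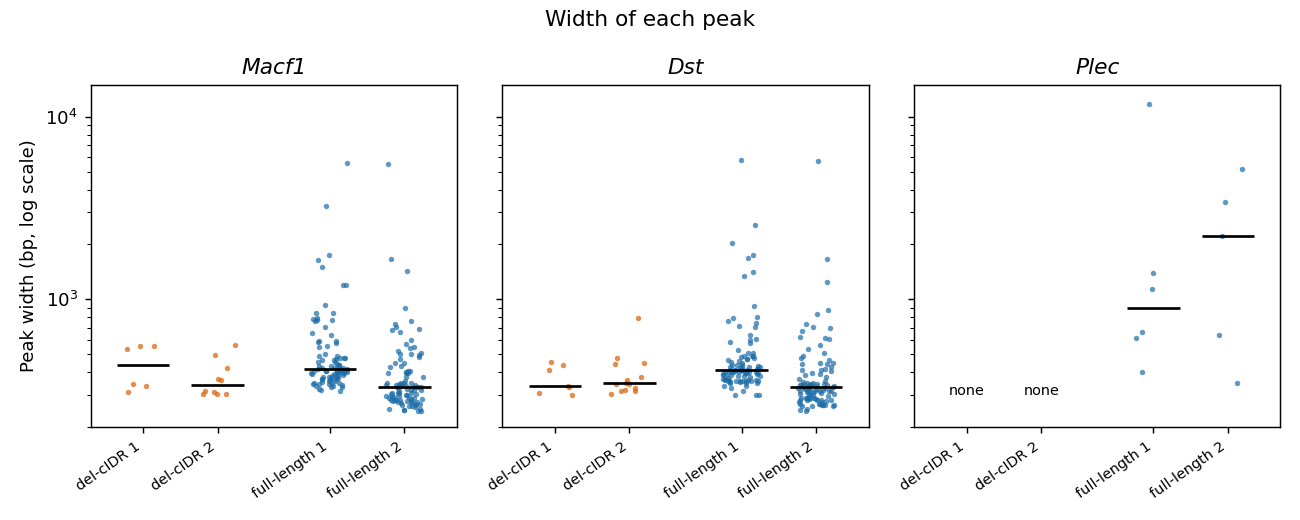
Width of every peak (bp, log scale) in each gene and immunoprecipitate, del-cIDR in orange and full-length in blue, with a black line at the median. The medians of the genotypes overlap in Macf1 and Dst, and in these genes points above 2 kb occur in the full-length lists only, while the whole del-cIDR lists hold 16 and 26 such peaks.

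Macf1 and Dst each had 1 very long and strongly enriched full-length peak of similar length. The Macf1 peak ran from 123364529 to 123370126 in replicate 1 (5598 bp) and from 123364586 to 123370112 in replicate 2 (5527 bp), with 23.9-fold and 13.5-fold enrichment. It ranked 10 and 33 in the 2 lists by −log10 q. Only 1 short del-cIDR peak, of replicate 1, lay inside it. The Dst peak ran from 34227067 to 34232894 in replicate 1 (5828 bp) and from 34227078 to 34232838 in replicate 2 (5761 bp), with 25.3-fold and 15.8-fold enrichment. It ranked 3 and 17, and it was the best ranked peak of the 3 genes in both lists. The del-cIDR lists had 2 short peaks each within it, at no more than 1.97-fold and 1.99-fold. In Plec the longest peak measured 11750 bp in replicate 1, from 76054971 to 76066720 at the 3′ end, with 10.3-fold enrichment. In replicate 2 the same stretch was split into 3 peaks of 5181, 2230 and 3421 bp, the highest of them at 4.39-fold.

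Fold enrichment of the peaks differed as well. The median fold enrichment (the authors' value for a peak over the background of the peak caller, which describes peaks within a list) was 2.92 and 2.39 in the del-cIDR pair, against 9.90 and 5.41 in the full-length pair for Macf1. For Dst it was 2.10 and 2.05 in the del-cIDR pair, against 10.1 and 6.10 in the full-length pair. The medians of the whole lists were 3.17 and 3.16 in the del-cIDR pair, against 3.80 and 3.60 in the full-length pair. The median fold of Macf1 and of Dst was thus below that of the list in both del-cIDR and above it in both full-length replicates. By −log10 q the order differed for Macf1, whose median rank was 3926 of 17584 and 6922 of 18841 in del-cIDR lists, and 509.5 of 19892 and 891 of 16636 in full-length lists. In Plec the full-length medians were 4.26 and 3.82, near that of the list. At 4-fold or more there was no Macf1 peak and 1 Dst peak in each del-cIDR list, against 81 and 73 Macf1 peaks and 88 and 81 Dst peaks in the full-length lists. The share of each whole list at this level was not computed, but the median of every whole list lay below 4-fold.

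The full-length replicates found nearly the same peaks. In Macf1 93.5% of the peaks of replicate 1 overlapped a peak of replicate 2, and 98.0% the other way. In Dst the shares were 96.9% and 98.0%, and in Plec 3 of 6 and 5 of 5 peaks did so. The del-cIDR replicates shared 3 of 6 and 3 of 10 peaks in Macf1 and 5 of 7 and 5 of 14 in Dst. These shares were not computed over the whole lists, and the genes were chosen where both full-length lists hold many peaks. By merged regions of the 4 lists, 86 of 95 in Macf1, 93 of 102 in Dst and 3 of 6 in Plec had a peak in both full-length lists. Genome-wide 10507 of 43029 did. Where a full-length region had exactly 1 peak in each replicate, the fold enrichment ran together, with a Pearson correlation of log2 fold of 0.674 over 79 pairs in Macf1 and 0.748 over 89 pairs in Dst (Spearman 0.602 and 0.738). These points share their 2 libraries and the length of their transcript. Replicate 1 had the higher value in 70 and 80 of those pairs. The share over matched pairs of the whole lists was not computed. The median fold of the whole full-length list was also higher in replicate 1 (3.80) than in replicate 2 (3.60).

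**Figure D4:**
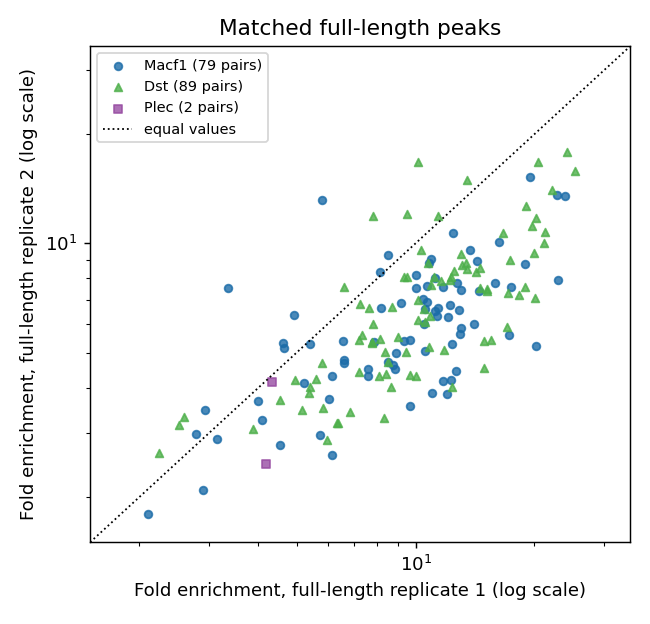
Fold enrichment in full-length replicate 1 (horizontal, log scale) against full-length replicate 2 (vertical, log scale) for regions with 1 peak in each, 79 in Macf1, 89 in Dst and 2 in Plec. Most points lie below the dotted line of equal values, and regions high in replicate 1 tend to be high in replicate 2.

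Merging the overlapping peaks of the 4 lists gave 95 regions in Macf1, 102 in Dst and 6 in Plec. Regions with a peak in both full-length lists and neither del-cIDR list numbered 75 in Macf1, 84 in Dst and 3 in Plec, against 7549 of 43029 regions genome-wide (17.5%). The best ranked of them in Macf1 lay from 123377163 to 123377947, 200.9 kb from the 5′ end, with 29.6-fold and 14.5-fold enrichment. The regions from 123349750 to 123350515 and from 123404168 to 123405006 followed. In Dst the first 3 were from 34238421 to 34238927 with 20.2-fold and 11.8-fold, from 34266863 to 34268613 with 17.3-fold and 9.01-fold, and from 34257427 to 34257935 with 22.1-fold and 14.0-fold. The 3 Plec regions were the long stretch described above and those from 76066819 to 76068214 and from 76069317 to 76070451.

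Most del-cIDR peaks in these genes lay where full-length peaks lay too. In Macf1 5 of 6 and 9 of 10 del-cIDR peaks overlapped a full-length peak, and in Dst 5 of 7 and 10 of 14 did. The genes were chosen for many full-length peaks, which raises such overlap. Counted as merged regions, 24636 held a del-cIDR peak genome-wide. Among them 2022 had peaks in all 4 lists, and 863 in 1 list of each genotype. A further 936 had them in both full-length lists and 1 del-cIDR list, and 1350 in both del-cIDR lists and 1 full-length list. Regions with a peak in all 4 lists numbered 2 in Macf1 (2.11%), 4 in Dst (3.92%) and 0 in Plec, against 2022 genome-wide (4.70%). The first in Macf1, from 123354608 to 123355042, had 3.45-fold and 2.87-fold enrichment in the del-cIDR pair, against 8.52-fold and 9.27-fold in the full-length pair. The other, from 123557972 to 123558611, was only 20.2 kb from the 5′ end, with 2.56-fold and 2.66-fold in the del-cIDR pair, against 6.13-fold and 2.60-fold in the full-length pair. In Dst 3 of the 4 had lower enrichment in both del-cIDR than in both full-length replicates: from 34216588 to 34219738, the long peak from 34227067 to 34232894, and from 34236269 to 34236708. How many of the 2022 regions genome-wide show either order was not computed. The median fold of the whole list was also lower in both del-cIDR lists (3.17 and 3.16) than in both full-length lists (3.80 and 3.60).

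The remaining Dst site ran the other way. From 34322532 to 34322832 the enrichment was 10.8-fold and 11.1-fold in the del-cIDR replicates, against 2.60-fold and 3.32-fold in the full-length replicates. Its rank was 914 and 844 in the del-cIDR lists, against 14093 and 5595 in the full-length lists. It was the best ranked del-cIDR peak of the 3 genes in both replicates, and it lay inside the dense block of full-length peaks nearest the 3′ end. Whether any of the other genes that overlap Dst, a microRNA gene among them, lies at this site was not examined.

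Regions with a peak in both del-cIDR lists and neither full-length list numbered 1 of 95 in Macf1, 1 of 102 in Dst and 0 of 6 in Plec, against 7609 of 43029 genome-wide (17.7%). That of Macf1, from 123355443 to 123355999, had 3.92-fold and 3.08-fold enrichment and was the best ranked Macf1 peak of del-cIDR replicate 1. It lay next to the shared region that ends at 123355042. That of Dst, from 34315425 to 34316217, had 2.10-fold and 3.47-fold enrichment and included the longest del-cIDR peak of these genes, 793 bp in replicate 2.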

How the data were processed

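The authors deposited 1 narrowPeak list for each immunoprecipitate, so peaks were called per replicate. The tools named per the submitters' processing notes are MACS2, UMI-tools, STAR and cutadapt, and the build is GRCm39. Their versions and settings, and the control in peak calling, are not given in the sources used. For each peak the authors deposited a fold enrichment (a ratio), a score, both p-value and q-value as −log10, and start, end and summit, which are positions of a kind other than these units. Lists named wt were taken as full-length and lists named KI as del-cIDR, the only other genotype. The lowest deposited −log10 q was 1.31 to 1.34.

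All peaks were used, with Python 3.11.15 and pandas 2.3.3. Covered bases count each base of an interval once. Tiles ran from the start of chromosomes 1 to 19, X and Y, without those over any of the 3 genes. Read depth is unknown, so no counting interval is given. Counting was tested on simulated lists. The members, the gene intervals and the quantities were chosen with earlier results of these data known. Named were, per gene and list, the widest and the best ranked peaks, per gene the regions of all 4 lists and the best 3 regions of 1 genotype only. The peak at the start of Dst was chosen after its values were seen. Alternatives were thresholds on −log10 q and fold, equal list length, the middle base for overlap, joining, scaling and each replicate left out. Other cytolinker genes, motifs and sequences at summits were not analysed here, since they need GRCm39 annotation or sequence.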

Additional observations from a re-analysis of the deposited data

How the results depend on the processing

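Of 88 values of 8 results under alternatives, 83 kept their direction, and del-cIDR had fewer peaks and covered bases in all 3 genes under every one. No paired analysis was possible because the labels do not say that equal replicate numbers mark a shared culture or day. With peaks within 1 kb and 5 kb joined, the difference in number (del-cIDR minus full-length) was -40.5 and -5.5 in Macf1, -39.0 and -4.5 in Dst and -3.5 and -1.0 in Plec. Joining adds the gaps to the covered length, whose difference became -69515 and -139328 bases in Macf1, -70244.5 and -147782.5 in Dst and, within 5 kb, -17689.5 in Plec. At 4-fold enrichment or more the covered difference was -38831.5 in Macf1 and -10380 in Plec, the number in Plec -3.0 and the median width in Dst -73.25 bp, with 1 peak left in each del-cIDR list. Without a replicate the covered difference in Plec ranged from -15958 to -11819. The difference in median width had no stable sign. In Macf1 it was 15.25 bp, ranged from -34.75 to 65.25 bp without a replicate (-34.75 without del-cIDR replicate 1, -27.0 without full-length replicate 2), and was -297.75 and -1795.25 bp after joining within 1 kb and 5 kb. In Dst it was -28.25 bp, ranged from -68.75 to 12.25 bp (12.25 without full-length replicate 1), and was -365.5 and -2237.25 bp after joining. In Plec no width difference exists, since no del-cIDR peak was listed, and at 4-fold none exists in Macf1. Joining within 1 kb and 5 kb took the mean of the Macf1 median widths in full-length lists from 372.25 to 719.5 and 2217 bp. In del-cIDR lists it went from 387.5 to 421.75 bp at both distances. The causes of the changes without a replicate, in covered length and in the sign of the width difference, were not tested. Counting regions of all lists in place of peaks, chosen after seeing the data, gave -82.0, -86.5 and -4.5. Depth is unknown, and peaks absent from a list may lie under the authors' threshold.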

Other observations

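The 4 peaks of the Dst site that del-cIDR favoured had 1 end in common, at 34322832 in each list. Such shared ends were frequent in the series. Of 2022 regions with a peak in all 4 lists, 481 (23.8%) had 1 peak in each list with the same end, and 452 (22.4%) with the same start.

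The edges of matched full-length peaks differed between replicates in opposite ways in Macf1 and Dst, although peaks carry no strand. Over 79 pairs in Macf1, which lies on the minus strand, the start in replicate 1 minus that in replicate 2 had a median of -60.0 bp (quartiles -65.5 and -56.0) and the end a median of 21.0 bp (12.5 and 37.5). Over 89 pairs in Dst, on the plus strand, the medians were -19.0 bp for the start (-32.0 and -8.0) and 60.0 bp for the end (56.0 and 66.0). In both genes the larger excess of replicate 1 was thus on the 3′ side. The smallest peak of the whole list was 297 bp in replicate 1 and 243 bp in replicate 2.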
